A study of Homo sapiens with 8 samples.

Results

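The genes of red blood cell formation were followed in SET-2 cells, with 37 genes named by symbol: 9 for globin chains and their chaperone, 7 for heme synthesis, 4 for iron and heme handling, 8 for the red cell membrane and its skeleton, 5 that carry or support blood group antigens, and 4 enzymes and regulators. All 37 symbols were found among the 25435 of the deposited table, and all 37 passed the filter on low counts that left 14898 genes for testing. SLC4A1 was known from earlier results of these data to be lower with guides against ZRSR2, and the question put here was whether the other genes follow it. Its own test is therefore a description and no independent support.

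SET-2 is an established megakaryoblastic cell line, derived when an essential thrombocythemia turned leukemic, and the series title describes the setting as JAK2-mutant. All 8 libraries came from this 1 line carrying a lentiviral guide RNA, which was directed against ZRSR2 in 4 libraries (the knockout) and was non-targeting in 4 (the control). Each genotype had 2 guides, each used in 2 experiments: experiment 1 gave replicate 1 (guide 1) and replicate 2 (guide 2) of each genotype, and experiment 2 gave replicate 3 (guide 1) and replicate 4 (guide 2). RNA was taken on day 20 after transduction for biological replicate 1 and on day 25 for biological replicate 2, per the labels' protocols, and reading the experiment number as that replicate number is an assumption. Nothing in the labels says that the libraries of 1 experiment are separate cultures beyond their different guides, so p-values measure the spread between these libraries.

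Red cells are built around hemoglobin, in which alpha-like and beta-like globin chains each hold a heme. Heme is made by a chain of enzymes that starts and ends in the mitochondrion and needs iron brought in through transferrin receptors. The cell's shape rests on a spectrin skeleton tied through ankyrin to band 3, the anion exchanger encoded by SLC4A1, and through protein 4.1 to glycophorin C. Megakaryocytes and red cells share a progenitor and several transcription factors, and lines of this kind often carry part of both programmes.

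Totals ran from 31106042 to 71521173 expected counts, the highest in control replicate 3, and the next highest was 46755265. Levels are given as CPM, a gene's counts per 1000000 counts of a library after TMM scaling, so that 1 count was worth 0.0143 to 0.0324 CPM. ZRSR2 itself averaged 24.8 ± 4.99 CPM in the knockout and 39.5 ± 1.34 CPM in the control (SD, n = 4 each), with no overlap. Among 12 megakaryocyte markers ITGA2B ran from 2085 to 2708 CPM, whereas GP1BB was at 0 in every library. Same-experiment libraries of opposite genotype deviated together (r across genes 0.678 to 0.846 in 8 pairs), whereas pairs from different experiments deviated oppositely (−0.816 to −0.709 in 8 pairs). Deviations were taken from each genotype's mean and cancel within it, so the second sign largely follows from the first.

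SLC4A1 was the member that differed most between genotypes. In the knockout it stood at 47.9 and 42.7 CPM in experiment 1 and at 40.8 and 40.9 CPM in experiment 2, guide 1 before guide 2. The controls stood at 59.8, 54.0, 60.3 and 54.6 CPM in the same order. Every knockout library was below every control library, in both experiments and with both guides. The mean was 43.1 ± 3.35 CPM against 57.2 ± 3.35 CPM (SD, n = 4 each), or 75.3% of the control.

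The log2 fold change of SLC4A1, knockout over control, was −0.41 (SE 0.09). With genotype as the sole term, edgeR's quasi-likelihood test gave an unadjusted p of 0.00182 and a Benjamini-Hochberg adjusted p of 1.00, and with the experiment as a block an adjusted p of 0.275. Without the block edgeR called none of the 14898 genes (0%), and 89 genes (0.597%) had an unadjusted p below 0.05. With the block it also called 0, and 690 genes (4.63%) had one. DESeq2 without a block called 4 genes, SLC4A1 among them (adjusted p = 0.0321). With DESeq2 and the experiment as a block, 31 genes (0.208%) were called, and SLC4A1 was the 1 member among them (log2 fold change −0.41, adjusted p = 0.00252). That DESeq2 call was lost without knockout replicate 2 (adjusted p = 0.0758) and without control replicate 1 (adjusted p = 0.143), and held in the other 6 fits that each left out 1 library, with log2 fold changes from −0.46 to −0.37. Without control replicate 3 CPOX was called as well. Among all tested genes 0.376% had every knockout library below every control library and 0.302% had every one above. SLC4A1 was the 1 member with the first pattern, and 0 members had the second.

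With all 8 libraries no other member passed either test. Knockout over control, 32 of the 36 members other than SLC4A1 had an estimate below 0, where 51.3% of all tested genes did, with a median log2 fold change of −0.09 against −0.00 over all genes. Of these 36, 0 had an unadjusted edgeR p below 0.05, and 4 did with the experiment as a block, where 4.63% of all genes did. The count below 0 rested in part on control replicate 3: without it 21 of the 36 estimates were below 0, and without any other single library the count ran from 25 to 33. Control replicate 3 also had the highest total and the highest HBG2, KLF1 and TFR2 of the 8 libraries, and the part of its depth in this count was not tested. In bulk RNA, fewer cells of a type and less RNA per cell cannot be told apart.

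With genotype as the sole term, the smallest unadjusted p-values after SLC4A1 belonged to iron genes. With the experiment as a block the order differed. There edgeR's unadjusted p was 0.0137 for CPOX, 0.0279 for HBG2, 0.0300 for SLC25A37 and 0.0372 for TFR2. SLC25A37, mitoferrin, which carries iron into the mitochondrion, stood at 246, 199.6, 223 and 305 CPM in knockout replicates 1 to 4 and at 259, 247, 293 and 453 CPM in the controls. TFR2, the transferrin receptor that senses iron, stood at 176, 174, 189 and 185 CPM in the knockout and at 189, 179, 231 and 208 CPM in the control. Within each experiment both TFR2 knockout libraries were below both controls, but the groups overlapped across experiments, and SLC25A37 overlapped in experiment 2. Neither passed the edgeR test (adjusted p-values of 1.00). Their log2 fold changes were −0.36 (SE 0.21) for SLC25A37 and −0.16 (SE 0.10) for TFR2. With the experiment as a block they were −0.34 (SE 0.14) and −0.15 (SE 0.07), and neither passed. Without the block, leaving out 1 library moved SLC25A37 between −0.49 (without knockout replicate 4) and −0.12 (without control replicate 4). TFR2 moved between −0.21 (without control replicate 2) and −0.09 (without control replicate 3).

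**Figure D1:**
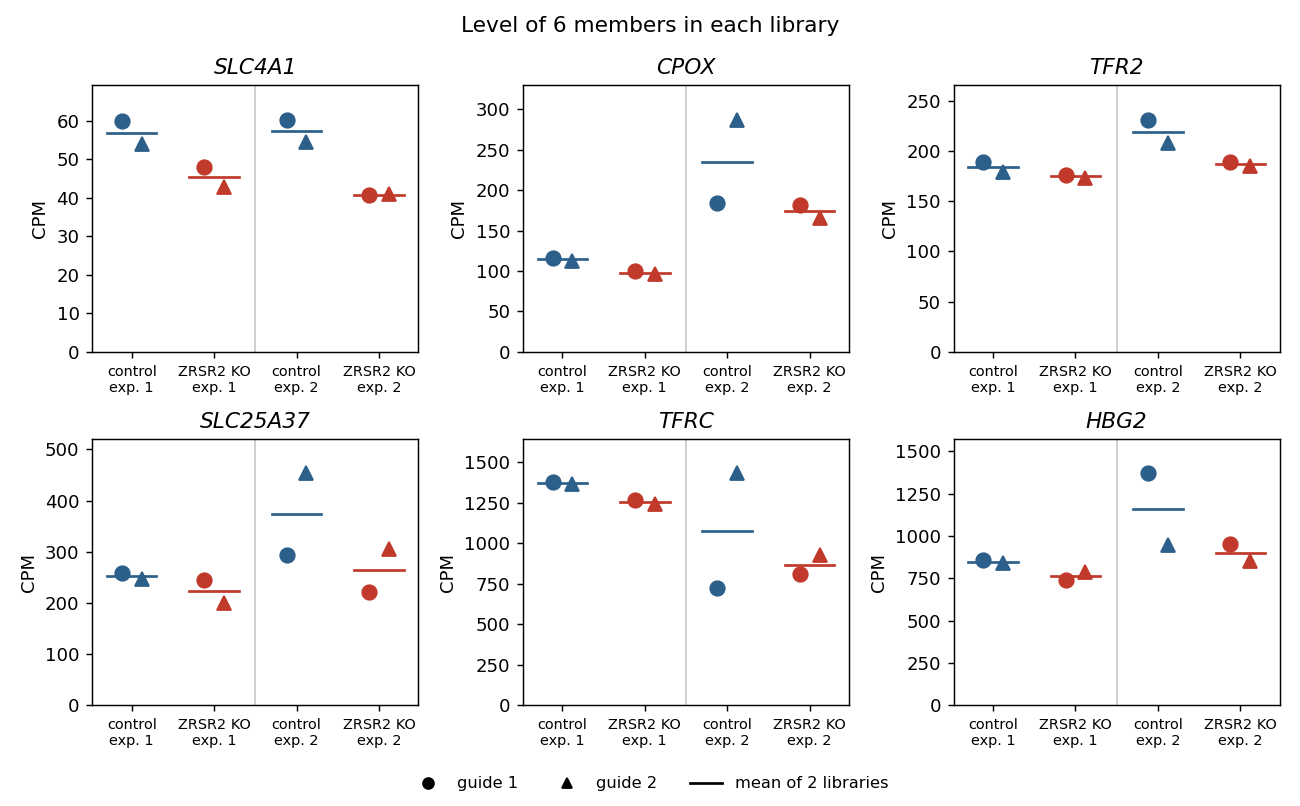
Level in CPM (y axis, from 0) of SLC4A1, CPOX, TFR2, SLC25A37, TFRC and HBG2 in each of the 8 libraries, by genotype and experiment (x axis); circles are guide 1, triangles guide 2, and lines are the mean of 2 libraries. SLC4A1 separates the genotypes in both experiments, whereas the 2 control libraries of experiment 2 stand far apart in CPOX (184 and 287 CPM) and TFRC (721 and 1429.7 CPM).

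Within experiment 1 SLC4A1 was again the member of smallest p. It had a log2 fold change of −0.33 (SE 0.11), and edgeR's unadjusted p was 0.0139. Of all genes 305 (2.05%) had an unadjusted p below 0.05, SLC4A1 was the 1 member among them, and 0% were called (5 genes and 0 members by DESeq2). Estimates were below 0 for 24 of the 36 members other than SLC4A1, with a median of −0.04 against 0.00 over all genes. The next smallest p-values belonged to 2 glycophorin genes that share reads with near-identical copies: GYPE at 0.50 (SE 0.24) and GYPB at 0.50 (SE 0.33), both with an adjusted p of 1.00 by edgeR. GYPE rested on knockout replicate 2 (7.48 CPM, against 4.15 to 4.58 CPM in the other 3 libraries of experiment 1). GYPB ran only from 0.579 to 1.46 CPM over the 8 libraries.

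Both knockout libraries of experiment 1 were below both controls for 11 members, which was so for 17.9% of all genes. These were TFRC, TRIM58, RHCE, TFR2, SLC25A37, CA1, SLC4A1, HBG2, KLF1, CPOX and UROS. SLC4A1, known beforehand to be lower, is counted in the 11. The knockout libraries were above both controls for 3 members (GYPE, GYPB and HBE1), which was so for 18.5% of all genes.

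Within experiment 2 the estimates lay lower. SLC4A1 had a log2 fold change of −0.49 (SE 0.11, unadjusted p = 0.00111 by edgeR), CPOX of −0.44 (SE 0.17) and SLC25A37 of −0.50 (SE 0.20), none past the adjusted threshold (adjusted p = 0.998 each). Estimates were below 0 for 33 of the 36 members other than SLC4A1, with a median of −0.19 against 0.00 over all genes. Without control replicate 3 the count was 23 of 36, and without control replicate 4 it was 26. The edgeR test called 0% of all genes (13 genes and 0 members by DESeq2). Of the 36 members other than SLC4A1, 5 had an unadjusted p below 0.05, as did 4.33% of all genes. These were CPOX, SLC25A37, HBG2, TFR2 and HBE1. Both knockout libraries were below both controls for 9 members (CA2, GYPB, ERMAP, TFR2, ALAD, HBD, ALAS2, SLC4A1 and CPOX), where 12.3% of all genes were, and above them for 0 members, where 11.2% were. SLC4A1, known beforehand to be lower, is counted in the 9.

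For CPOX and TFRC the 2 control libraries of experiment 2 lay far apart. CPOX, which makes protoporphyrinogen from coproporphyrinogen, stood at 184 CPM in control replicate 3 and at 287 CPM in control replicate 4, with 182 and 166 CPM in the knockout. TFRC, the transferrin receptor that takes up iron, stood at 721 and 1429.7 CPM in these controls, with 812 and 924 CPM in the knockout. Leaving out either control left 1 control library in experiment 2, so the spread of these controls was not measured and only estimates are given. Without control replicate 3, CPOX was at −0.72 and TFRC at −0.72. Without control replicate 4 the same 2 estimates were −0.06 and 0.29, on opposite sides of 0. SLC25A37 was at −0.78 without control replicate 3 and at −0.13 without control replicate 4. SLC4A1 was at −0.42 without control replicate 3 and at −0.54 without control replicate 4.

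**Figure D2:**
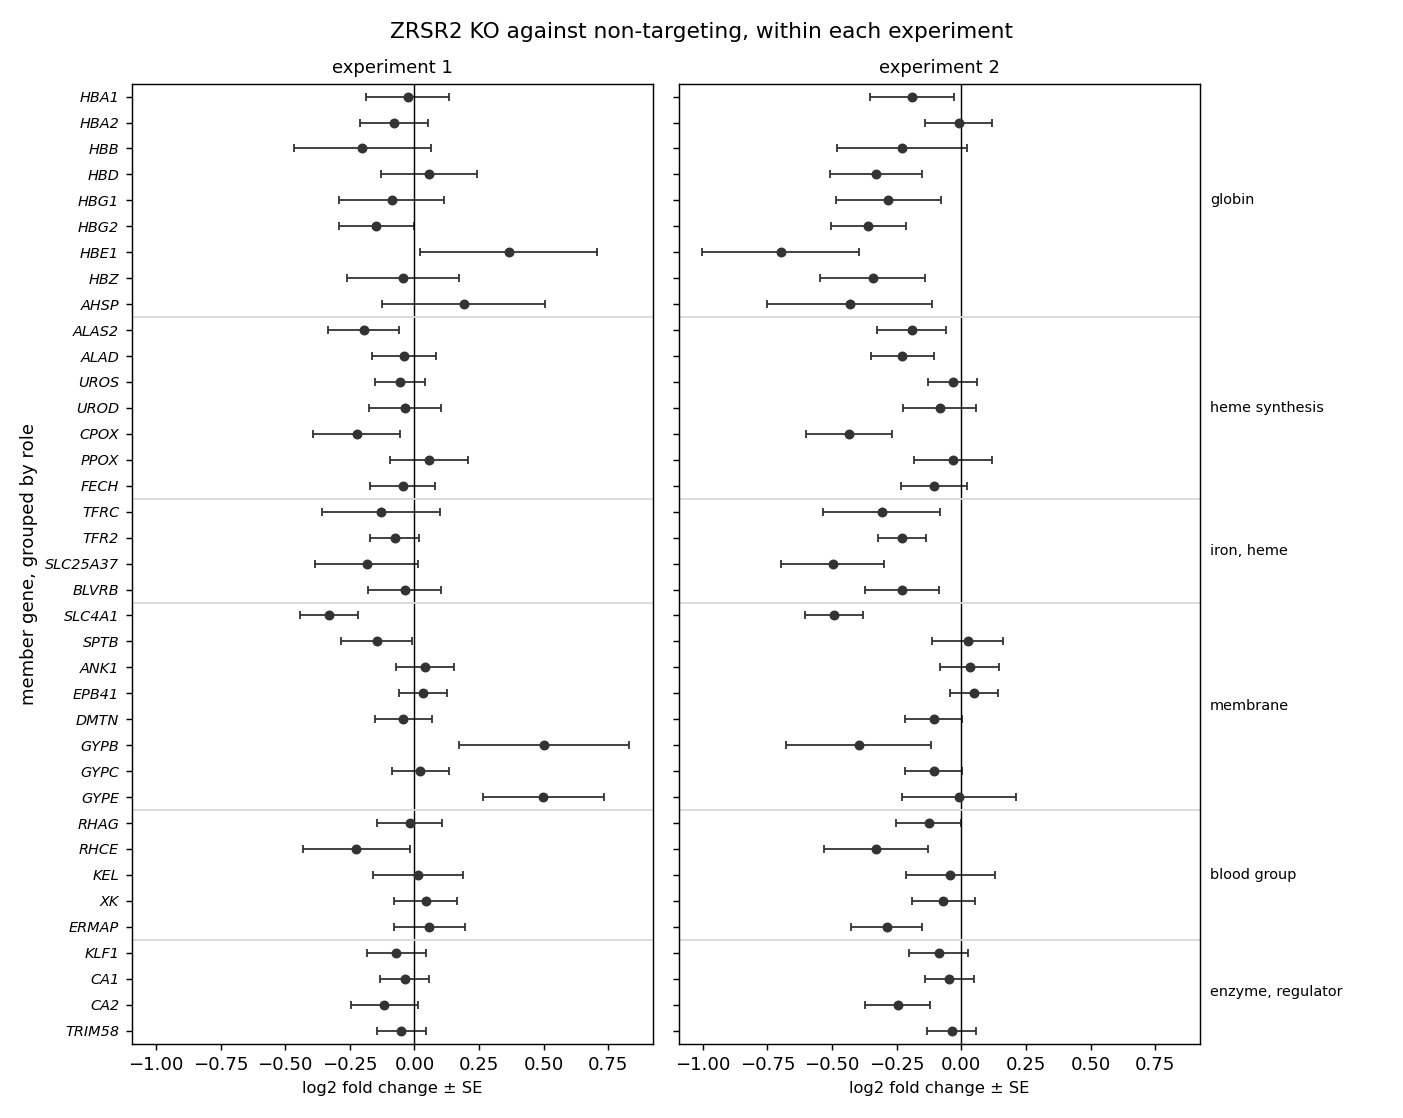
Log2 fold change of the knockout over the control (x axis, ± SE from the edgeR fit) of the 37 members, grouped by role (y axis), within experiment 1 (left) and experiment 2 (right), each 2 libraries against 2. The points lie around 0 on the left (median −0.04) and to its left on the right (median −0.19), and none passed the adjusted threshold.

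The difference between experiments was tested itself. By edgeR's interaction contrast 0% of all genes were called (0 by DESeq2), 248 (1.66%) had an unadjusted p below 0.05, and HBE1 was the 1 member among them, with a difference of −1.06 (SE 0.46, unadjusted p = 0.0403). GYPB followed at −0.90 (SE 0.43) and ERMAP at −0.35 (SE 0.19), all with an adjusted p of 1.00. SLC4A1 differed by −0.16 (SE 0.16). In 3 members (TFR2, CPOX and SLC4A1) the knockout libraries were below the controls in both experiments, as in 3.26% of all genes. SLC4A1, known beforehand to be lower, is counted in the 3. No member was above the controls in both, which was so for 2.46%. GYPB was above in the first and below in the second, as were 1.83% of all genes, and 0 members moved the other way, as 1.4% did.

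The 2 ZRSR2 guides were compared with the same 4 control libraries, so their values are set side by side only. SLC4A1 was at −0.36 (SE 0.13, unadjusted p = 0.0280 by edgeR) with guide 1 and at −0.45 (SE 0.13, unadjusted p = 0.0119) with guide 2. Tested directly, guide 2 differed from guide 1 by −0.09 (SE 0.15, adjusted p = 1.00), and by 0.0405 without knockout replicate 1. With guide 1, ALAD was at −0.25 (SE 0.16) and SLC25A37 at −0.41 (SE 0.29). With guide 2, HBG2 was at −0.28 (SE 0.22) and TFR2 at −0.17 (SE 0.14). None of these passed the threshold, and edgeR called 0% of all genes for either guide (0 and 2 genes by DESeq2, and 0 members). Unadjusted p-values below 0.05 were held by 1 member (SLC4A1) for each guide, and by 0.121% of all genes with guide 1 and 0.403% with guide 2. With the experiment as a block, 3 of the 36 members other than SLC4A1 had one for guide 1, where 2.75% of all genes did. For guide 2, 4 of these 36 had one, where 5.03% of all genes did.

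Between the 2 ZRSR2 guides 0 members had an unadjusted edgeR p below 0.05, with the block or without, where 0.181% of all genes did and 2.52% with the block. The members nearest to it were PPOX at 0.26 (SE 0.17), ANK1 at 0.16 (SE 0.12) and ALAD at 0.21 (SE 0.18). Between the 2 control guides, which measures the background, 0 members had one without the block, where 0.0873% of all genes did, and 6 with it, where 3.24% did. HBG1 had the smallest p there, at −0.50 (SE 0.22) without the block and an unadjusted p of 0.00688 with it (adjusted p = 0.930). For HBG1 the knockout estimate over all 8 libraries was −0.19 (SE 0.18).

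Experiment 2 was then compared with experiment 1, averaged over both genotypes. The edgeR test called 24 of the 37 members where 58.2% of all genes were called, a share near that background, and 25 had an unadjusted p below 0.05, where 62.9% did. The direction was less even: 20 members were higher, where 29.6% of all genes were, and 4 lower, where 28.6% were. The median log2 fold change of the members was 0.28, against 0.00 over all genes. All 4 libraries of experiment 2 were above all 4 of experiment 1 for 15 members, where 28% of all genes were, and below them for 2 (TRIM58 and EPB41), where 28% were. Day, experiment and any batch cannot be told apart in this design.

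**Figure D3:**
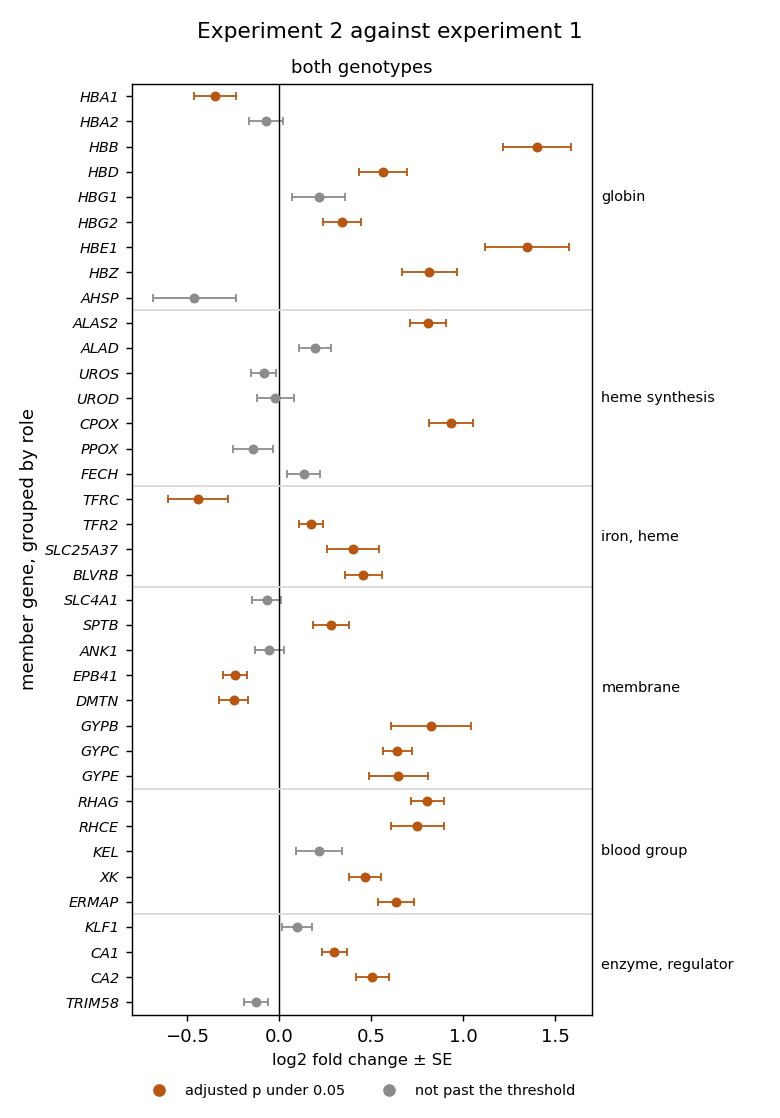
Log2 fold change of experiment 2 over experiment 1 (x axis, ± SE from the edgeR fit, 4 libraries against 4) of the 37 members, grouped by role (y axis); orange points have an adjusted p below 0.05 and grey points do not. Of the members, 20 orange points lie to the right of 0 and 4 to its left, and HBB and HBE1 reach the highest values (1.40 and 1.35).

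Promoter sequence is shown for 4 of the members that were higher in experiment 2 with small adjusted p-values, a blood group gene, 2 heme enzymes and a glycophorin, so that the start regions of genes named in the results can be seen. The 250 bases before the RefSeq start are given from the GRCh38.p14 table, 5′ to 3′ on the gene's own strand, with every GATA word in capitals. The words searched were AGATAA and TGATAA on both strands, which appear as TTATCT and TTATCA when read on the other strand.
RHAG, chr6:49636840-49637089, minus strand: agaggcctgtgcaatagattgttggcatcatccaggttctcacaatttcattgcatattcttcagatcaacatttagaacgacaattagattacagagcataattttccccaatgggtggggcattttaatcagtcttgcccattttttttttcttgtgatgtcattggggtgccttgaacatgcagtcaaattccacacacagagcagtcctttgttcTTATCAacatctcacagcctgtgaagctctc
ALAS2, chrX:55030978-55031227, minus strand: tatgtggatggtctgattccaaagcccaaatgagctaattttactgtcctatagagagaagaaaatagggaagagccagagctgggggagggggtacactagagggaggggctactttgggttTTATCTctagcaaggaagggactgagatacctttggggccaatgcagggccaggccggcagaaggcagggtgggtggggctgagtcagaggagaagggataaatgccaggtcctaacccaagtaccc
CPOX, chr3:98593612-98593861, minus strand: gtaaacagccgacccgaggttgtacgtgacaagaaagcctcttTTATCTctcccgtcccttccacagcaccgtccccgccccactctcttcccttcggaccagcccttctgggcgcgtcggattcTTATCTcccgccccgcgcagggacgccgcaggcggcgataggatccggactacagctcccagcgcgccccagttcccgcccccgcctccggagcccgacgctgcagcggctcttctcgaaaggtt
GYPC, chr2:126655908-126656157, plus strand: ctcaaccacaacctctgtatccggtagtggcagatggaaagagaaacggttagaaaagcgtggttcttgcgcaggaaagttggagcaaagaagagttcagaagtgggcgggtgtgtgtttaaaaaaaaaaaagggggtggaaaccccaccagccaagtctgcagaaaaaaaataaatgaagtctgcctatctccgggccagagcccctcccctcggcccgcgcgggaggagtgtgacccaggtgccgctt

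RHAG held 1 such word, 31 bases before its start, ALAS2 held 1 at 127 bases, CPOX held 2 at 207 and 125 bases, and GYPC held 0. Of the 37 members 20 had a promoter in the table, and 12 of these 20 held a GATA word, as did 17.5% of the 27305 genes with a promoter there. The CACCC word CCNCNCCC, searched on both strands, was held by 15 of the 20 members and by 56.4% of those genes. A match describes these letters and is not a bound site.

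Among the heme enzymes 2 of 7 changed between experiments, both upward, where 58.2% of all genes were called. ALAS2, the erythroid enzyme of the first and rate-limiting step, stood at 19.3, 17.2, 23.3 and 18.5 CPM in experiment 1 (knockout, then control) and at 32.6, 31.3, 37.9 and 35.0 CPM in experiment 2. CPOX stood at 99.7, 96.1, 116 and 112 CPM and then at 182, 166, 184 and 287 CPM. Neither gene's experiments overlapped, in either genotype. ALAS2 was higher by 0.81 (SE 0.10, adjusted p = 5.00e-05 by edgeR) and CPOX by 0.93 (SE 0.12, adjusted p = 7.42e-05). The other 5 did not pass the test: ALAD, UROS, UROD, PPOX and FECH, which inserts the iron, had log2 fold changes from −0.14 to 0.19. Over the 8 libraries ALAD ran from 46.9 to 67.8 CPM, UROS from 58.4 to 64.8 CPM, UROD from 481 to 656 CPM, PPOX from 38.6 to 52.9 CPM and FECH from 156 to 212 CPM.

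Of the blood group genes 4 of 5 were called higher, where 29.6% of all genes were, and 0 lower, where 28.6% were. RHAG, the partner that brings Rh proteins to the surface, stood at 196, 207, 209 and 199.5 CPM in experiment 1 and at 379.9, 298, 339 and 402 CPM in experiment 2, in the order knockout guides 1 and 2, control guides 1 and 2. The 2 experiments did not overlap, and the log2 fold change was 0.80 (SE 0.09, adjusted p = 3.17e-05 by edgeR). RHCE, which carries Rh antigens and shares reads with RHD, was higher by 0.75, ERMAP by 0.63 and XK, the partner of Kell, by 0.47. KEL itself, at 0.22 (SE 0.12), did not pass. RHCE ran from 10.5 to 13.8 CPM in experiment 1 and from 16.1 to 27.8 CPM in experiment 2, ERMAP from 103 to 135 and from 148 to 206 CPM, and XK from 86.1 to 92.5 and from 110.4 to 139.9 CPM, all 3 without overlap. KEL overlapped, at 35.4 to 53.1 CPM over the 8 libraries.

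Of the membrane genes 6 of 8 changed, 4 higher and 2 lower, where 58.2% of all genes were called, and the skeleton genes among them went both ways. GYPC, glycophorin C, stood at 127, 138, 130 and 132 CPM in experiment 1 and at 197, 199, 236 and 191 CPM in experiment 2. Its experiments were apart in every library, at 0.64 (SE 0.08, adjusted p = 5.97e-05 by edgeR). GYPB (0.82, SE 0.22) and GYPE (0.65, SE 0.16) were higher too, as was the beta-spectrin gene SPTB (0.28, SE 0.10). EPB41, protein 4.1, fell by 0.24 (SE 0.07, adjusted p = 0.00944 by edgeR) and DMTN, the actin-bundling dematin, fell by 0.25 (SE 0.08, adjusted p = 0.0193). SLC4A1 (−0.07, SE 0.08, adjusted p = 0.484) and the ankyrin gene ANK1 (−0.05, SE 0.08) did not pass. SLC4A1 ran from 42.7 to 59.8 CPM in experiment 1 and from 40.8 to 60.3 CPM in experiment 2, with each genotype's libraries in both ranges. EPB41 ran from 285 to 311 CPM and from 239 to 264 CPM, without overlap. Over the 8 libraries DMTN ran from 198 to 260.4 CPM, SPTB from 101 to 160.3 CPM, ANK1 from 564 to 703 CPM and GYPE from 4.15 to 8.88 CPM, and their experiments overlapped.

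All 4 iron and heme handling genes passed the test, 3 higher and 1 lower, where 58.2% of all genes passed. Leaving out each of the 8 libraries in turn, the call of BLVRB held in 8 fits, but that of SLC25A37 held in 3 and those of TFR2 and TFRC in 2 each. BLVRB, which reduces biliverdin, ran from 228 to 248 CPM in experiment 1 and from 283 to 412 CPM in experiment 2, higher by 0.46 (SE 0.10, adjusted p = 0.00256 by edgeR). SLC25A37 was higher by 0.40 (SE 0.14, adjusted p = 0.0290) and TFR2 by 0.17 (SE 0.07, adjusted p = 0.0414). TFRC ran from 1240.3 to 1377 CPM in experiment 1 and from 721 to 1429.7 CPM in experiment 2, and fell by 0.44 (SE 0.16, adjusted p = 0.0362), although control replicate 4 was above all of experiment 1.

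Of the 4 enzymes and regulators the 2 carbonic anhydrases were called higher, where 29.6% of all genes were. CA1 was higher by 0.30 (SE 0.07) and CA2 by 0.51 (SE 0.09, adjusted p = 6.87e-04 by edgeR). CA2 ran from 35.7 to 43.1 CPM in experiment 1 and from 47.3 to 65.2 CPM in experiment 2, with no overlap. KLF1, a transcription factor that drives many of the genes named here, ran from 363 to 384 CPM and from 359 to 466 CPM, overlapping, at 0.10 (SE 0.08). TRIM58, a ubiquitin ligase of late red cell precursors, was at −0.12 (SE 0.07), not past the threshold, although its 2 ranges (150.2 to 157 CPM and 132 to 147 CPM) did not overlap. CA1 ran from 337 to 352 CPM and from 399 to 463 CPM.

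The globin group changed in 6 of 9 members, 5 higher and 1 lower, where 58.2% of all genes were called. HBB, the adult beta chain, stood at 14.4, 10.04, 14.6 and 13.4 CPM in experiment 1 and at 24.0, 39.8, 30.04 and 44.9 CPM in experiment 2, knockout before control. The 2 guide 2 libraries were the highest of experiment 2, in both genotypes. HBB was higher by 1.40 (SE 0.19, adjusted p = 9.42e-05 by edgeR). HBE1, the embryonic epsilon chain, stood at 2.64, 3.62, 2.27 and 2.62 CPM and then at 6.87, 4.19, 11.5 and 6.32 CPM, higher by 1.35 (SE 0.23, adjusted p = 5.14e-04). These were the 2 members with a change of 2-fold or more, upward as in 8.75% of all genes, and 0 members fell that far, where 5.44% did.

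HBB and HBE1 were both higher in experiment 2, but in each genotype and experiment the guide library with more HBB had less HBE1. Exons of HBE1 overlap exons of the far more abundant HBG2 on the same strand. The part of HBG2 reads in the HBE1 counts was not tested. HBZ, the embryonic zeta chain, was higher by 0.82 (SE 0.15), HBD, the delta chain, by 0.56 (SE 0.13) and HBG2, a fetal gamma chain, by 0.34 (SE 0.10, adjusted p = 0.0141 by edgeR). HBG1, its near-identical copy, was at 0.22 (SE 0.14) and did not pass. With the counts of both gamma genes summed the change was 0.32 (SE 0.11, adjusted p = 0.0238). HBA1, an alpha chain, fell by 0.35 (SE 0.11, adjusted p = 0.0218), while its copy HBA2 was at −0.07 (SE 0.09). Summed, the 2 alpha genes were at −0.20 (SE 0.10, adjusted p = 0.0904), which did not pass. The ranges over the 8 libraries were 26.6 to 44.3 CPM for HBA1, 36.2 to 45.8 CPM for HBA2, 169.6 to 305 CPM for HBG1 and 741 to 1369.9 CPM for HBG2, all with overlap between experiments. HBD (7.44 to 10.6 and 11.6 to 15.9 CPM) and HBZ (4.79 to 5.76 and 6.51 to 11.0 CPM) did not overlap. AHSP, the chaperone of free alpha chains, ran from 1.28 to 3.54 CPM and did not pass.

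Gamma chains made up nearly all of the beta-like message. Each gene's CPM was divided by the length of its transcript, from 614 to 918 bases in the GENCODE 29 annotation, and the 5 beta-like genes were summed. HBG1 and HBG2 together held 97.6% to 98.3% of that sum in experiment 1 and 95.5% to 97.3% in experiment 2. HBB held 0.870% to 1.29% and then 1.48% to 3.23%, and HBE1 held 0.147% to 0.258% and then 0.266% to 0.465%. Neither range overlapped between experiments. By genotype the gamma share was 97.2% ± 1.04 in the knockout and 97.2% ± 1.22 in the control (SD, n = 4 each).

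**Figure D4:**
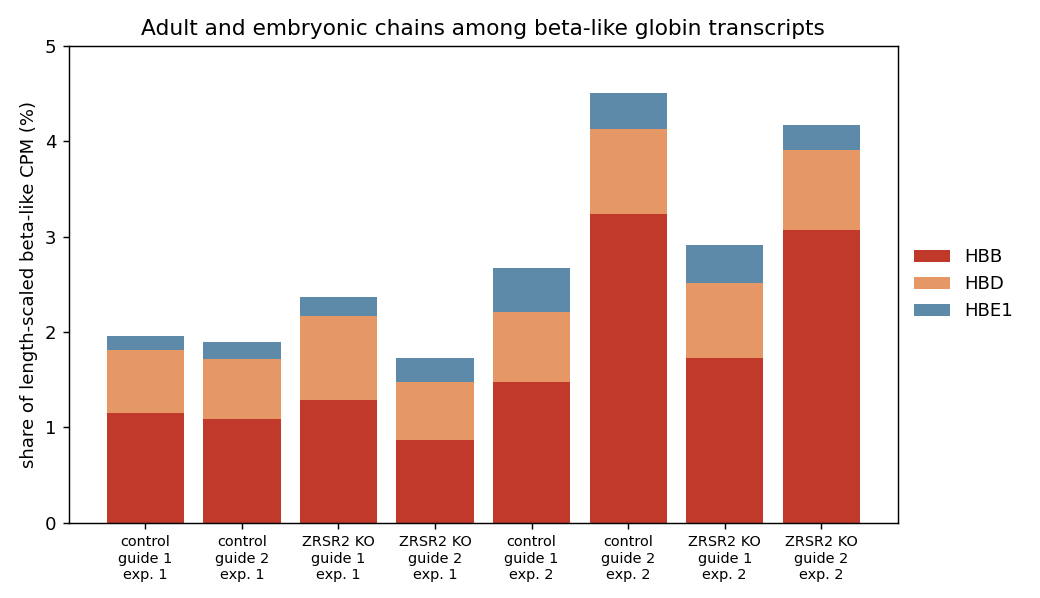
Share of each beta-like globin gene other than the gamma pair in the length-scaled CPM of the 5 beta-like genes (y axis, percent, from 0) in each of the 8 libraries (x axis). The HBB share is 0.870% to 1.29% in experiment 1 and 1.48% to 3.23% in experiment 2, and the gamma pair, not drawn, holds the rest.

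Leaving out each library in turn, 16 of the 24 calls between experiments held in all 8 fits. The 8 that were lost in at least 1 were TFRC, TFR2, SPTB, SLC25A37, DMTN, HBA1, EPB41 and HBG2, so that all 4 lower calls are among them. Without knockout replicate 1, or without control replicate 2, 0 members were called lower and 19 or 17 higher. TFRC, whose estimate ran from −0.73 to −0.23, was called in 2 of the 8 fits, and was not called by DESeq2 (adjusted p = 0.110). The calls of CPOX, ALAS2, RHAG, GYPC, HBB and HBE1 each held in 8 of 8.

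Other genes of the same pathways were read from lists that do not overlap the members. Knockout over control, edgeR called 0 genes on any of the 5 lists. With genotype as the sole term PKLR, a red cell pyruvate kinase, was the 1 with an unadjusted p below 0.05, where 0.597% of all genes had one. Its log2 fold change was −0.33. With the experiment as a block, 2 genes on each of the membrane skeleton, blood group and regulator lists had one, where 4.63% of all genes did. Between experiments the calls were 10 of 14 for heme synthesis and transport (3 higher, 7 lower), 8 of 12 for iron handling (4 and 4), 16 of 18 for the membrane skeleton (10 and 6), 12 of 15 for blood group carriers (8 and 4) and 15 of 20 for erythroid regulators (7 and 8). Of all genes 58.2% were called, 29.6% higher and 28.6% lower, so these counts are read against a high background. Their median log2 fold changes were −0.20, 0.03, 0.26, 0.30 and 0.01 in that order. Blood group carriers and the membrane skeleton lay above 0 as the members did, whereas the further heme genes lay below it.

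By name, the heme-degrading HMOX1 was higher by 0.82 (adjusted p = 3.61e-05 by edgeR) and HMOX2 fell by 0.84. The ferritin heavy chain gene FTH1 was higher by 0.40 (adjusted p = 1.16e-04). SLC2A1, the glucose transporter of red cells, was higher by 0.91 and SPTBN1, a spectrin of other cells, fell by 0.57. RHD, which carries the Rh D antigen, was higher by 1.12 (adjusted p = 4.93e-05). FOXO3 and IKZF1, transcription factors, were higher by 1.01 and 0.52. These 8 genes were among the 2 of smallest p on each list.

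Markers of other cell types differed between the experiments in both directions, and the sums rest on few genes. The summed level of 5 stem and progenitor markers ran from 1007 to 1025 CPM in experiment 1 and from 1314 to 1805 CPM in experiment 2. CD34 carried that rise, at 0.97 by edgeR (adjusted p = 4.84e-06), whereas KIT was at −0.05 and MEIS1 at −0.13, neither past the threshold. For 5 mast cell and basophil markers the sums were 974 to 1115 and 1411 to 1779 CPM, carried by HDC (0.69), whereas TPSAB1 fell by 0.61 and MS4A2 fell by 1.48. Of the 12 megakaryocyte markers 11 were tested, of which 5 were called higher and 2 lower (GP6 at −1.87 and PF4 at −0.63), with sums of 2666 to 2874 and 2806 to 3547 CPM. For 7 lymphoid markers the sums were 32.0 to 38.5 and 62.2 to 77.5 CPM, with CD3E and MS4A1 at or under 3 counts in every library. The 9 granulocyte and monocyte markers summed to 229.9 to 249 and to 254 to 328 CPM, with 2 called higher and 1 lower of the 6 tested. Their part in the members' difference between experiments was not tested. Between genotypes the ranges of the sums of all 5 lists overlapped.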

How the data were processed

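Messenger RNA was sequenced from 8 SET-2 libraries. The authors deposited RSEM expected counts per gene symbol. RSEM 1.2.30, cutadapt 1.11 and genome build hg19 are named in the submitters' processing notes. The aligner, the annotation and any use of strand are not given in the sources used here, and 13 of the 37 members overlap another gene's exons, 7 of them on the opposite strand. Rounding to whole numbers changed 0 of the expected counts. The table had 0 columns of other samples. RSEM divides reads between near-identical genes by probability, so HBA1 and HBA2, HBG1 and HBG2, GYPB and GYPE, and RHCE and RHD are uncertain singly.

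Genes were filtered with filterByExpr on genotype, scaled by TMM and tested with edgeR 4.0.16 (R 4.3.3), using the quasi-likelihood F test. P-values were adjusted by the Benjamini-Hochberg method across 14898 genes, with a threshold of 0.05. Genotype was the sole term of the knockout contrast. Effects within and between experiments came from 1 fit of genotype by experiment, and guides from 1 fit of 4 guides. Without the block, the standard errors of the knockout and guide contrasts include the difference between experiments. Standard errors were derived from the F statistic. DESeq2 1.42.0, another scaling, other filters, the experiment as a replicate block and leaving out each library were alternatives. The experiment number of the titles was taken as pairing the libraries in the fits with a block, and same-experiment pairs correlated at 0.678 to 0.846. That it stands for a collection day is an assumption. No 2 libraries agreed within sampling noise (of 28 pairs the closest had a chi-square of 3.05 for each degree of freedom), so all 8 were counted. A floor of 3 counts was worth 0.0428 to 0.0971 CPM. Floors cover counting error only, since reads lack molecular identifiers and are no independent molecules.

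On simulated data for the genotype contrast, edgeR recovered 6% of 1.5-fold and 36% of 2-fold changes without the block and 82% and 97% with it. For the experiment contrast, simulated with no difference between experiments in any other gene, it recovered 84% and 97%. The simulated spread was a fixed value not estimated from these data, and guides did not differ. These shares therefore describe the simulation and are not the power of this data set.

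The members and all gene lists were chosen with earlier results of these data known. Every member is accounted for; members past the threshold were named for each contrast, or the 3 of smallest p where none passed, and the 2 of smallest p on each further list between experiments. Some genes that this rule selects are not reported here. Promoters came from a RefSeq table on GRCh38.p14, transcript lengths from GENCODE 29. Figures were drawn with matplotlib 3.10.9 in Python 3.11.15. A further ZRSR2 guide of the series was not analysed here.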

Additional observations from a re-analysis of the deposited data

Results flagged for a closer look

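By Dixon's limit for 4 values, 7 of 152 groups of 4 libraries had a highest or lowest library far from its nearest neighbour. The groups were each member and the library total, by genotype and by experiment. About 1 in 20 groups, or 7.6, would pass the limit if each were drawn from 1 normal distribution. Groups by genotype mix both experiments, so 7.6 is not the number due here. The library total of control replicate 3 was 71521173 expected counts, with 31106042 to 36544665 in the other controls. CPOX in control replicate 4 was 287 CPM among the libraries of experiment 2. In control replicate 3, FECH was 212 CPM, TFRC 721 CPM and SPTB 160.3 CPM among the controls. In knockout replicate 2, DMTN was 241 CPM and GYPE 7.48 CPM among the libraries of experiment 1. GYPB went opposite ways in the 2 experiments, with both knockout libraries above the controls in experiment 1 and below them in experiment 2. Its difference of log2 fold changes was −0.90 (SE 0.43, unadjusted p = 0.0616 by edgeR, adjusted p = 1.00).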

How the results depend on the processing

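For 115 results 1518 alternative values were computed. A gene's value was the same if it kept its direction and its side of the threshold. A count was the same if within 1.5-fold of the main count or at 0 in both, and a median if within the spread between libraries. By these rules 1404 were the same, counts at 0 in both among them. Of the rest 68 moved, 38 were no longer past the threshold, 7 newly passed it and 1 changed sign. Genes called for the knockout, against 0 by edgeR, were 4 with DESeq2 and 31 with DESeq2 and the replicate block, with 1 member (SLC4A1) in each. Within experiment 1 they were 5 with DESeq2 and 40 with no filter on low counts. Within experiment 2 they were 13 with DESeq2, 116 with no filter (3 members: SLC4A1, CPOX and SLC25A37) and 0 to 154 leaving out 1 library (0 to 2 members, the highest without control replicate 3). For the difference between experiments 5 genes were called with no filter. Guide 1 gave 4 with DESeq2 and the block; guide 2 gave 10 with the replicate block by edgeR, 2 with DESeq2 and 39 with DESeq2 and the block (1 member, SLC4A1); guide 2 against guide 1 gave 2 with DESeq2 and the block. By edgeR the replicate block changed no call of a member in any knockout or guide contrast. The difference between ZRSR2 guides in SLC4A1 ran from −0.20 to 0.0405 leaving out 1 library and changed sign without knockout replicate 1. The cause of these shifts was not tested. With experiment as the sole term 9089 genes and 23 members differed between experiments, TFR2 no longer among them (adjusted p = 0.0544). Where leaving out 1 library left a group with 1, that library was assumed to vary like the others. With 4 libraries a genotype, a call of 0 by the fit without the block is not taken as a limit on changes of 1.5-fold. That fit recovered 6% of such changes in the simulation, whose spread was not estimated from these data.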
